A study of Drosophila melanogaster with 6 samples.

Results

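The 10 genes described here encode proteins that sense broken or damaged DNA, stop the cell cycle, or repair the lesion. They are Ku80, Irbp, mre11, rad50, nbs, lok, grp, Blm, Ercc1 and Gadd45 of Drosophila melanogaster. They were chosen by symbol, and each matched 1 of the 16451 gene rows in the files. RNA was sequenced from S2 cells labelled wild type, an established line from late fly embryos that resembles hemocytes. In 3 libraries the cells had received 10 mM H2O2 (hydrogen peroxide, an oxidant that damages DNA) for 30 min at 25 °C, and in 3 control libraries an equal volume of Schneider's medium. All cells grew in that medium with 10% serum and antibiotics. By its title the series asks how p38, a stress kinase, acts in the nucleus when oxidants change transcription.

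Oxidants cause base damage, single-strand breaks and, less often, double-strand breaks. The Ku dimer and the Mre11-Rad50-Nbs complex bind broken ends, the first leading to end joining and the second to end resection and to activation of the ATM kinase. ATM and ATR then activate the checkpoint kinases Chk2 (lok in flies) and Chk1 (grp), which act on existing proteins, and p53 acts downstream on transcription. In irradiated flies, genes for the Ku proteins, mre11 and the death gene rpr are known p53-dependent targets.

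After H2O2, none of the 10 genes passed the test on group alone. For 8 of them the fitted log2 fold change was between −0.16 and 0.13. Gadd45, a stress-responsive gene, had the largest value, 1.02, with a wide spread in both groups, and Blm, a helicase gene, the lowest, −0.30. With the replicate number as a block, Blm was called lower and Gadd45 was not called by edgeR. Blm was no longer called once a trend of fold change with transcript length was also removed (log2 fold change −0.047). Another program, DESeq2, run with the block after the data were seen, called Blm lower and Gadd45 higher.

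The test was edgeR's quasi-likelihood F test over 8955 genes, with Benjamini-Hochberg adjustment and a call at an adjusted p under 0.05. It called 281 genes, 3.14% of those tested, 2.57% higher and 0.57% lower. It called 0 genes without H2O2 replicate 2, control replicate 2 or control replicate 3. An unadjusted p under 0.05 was then left in 891, 1054 and 1054 genes. All 10 members passed the filter on low counts, with between 311 and 7000 reads each per library, and 0 of 10 were called. At an unadjusted p under 0.05, edgeR also gave 0 of 10, against 1256 of all 8955 genes. Limma on log2(TPM + 1) called 0 members, against 1.9% of all genes called higher and 0.625% lower. At an unadjusted p under 0.05 it gave 0 members, against 1482 of all 8955 genes. DESeq2, run on all 13324 genes with any read, called 0 members, against 3.14% of those genes called higher and 2.44% lower. At an unadjusted p under 0.05 it gave 1 member, against 1641 of the 13324 genes. In CPM (counts scaled to library size with TMM factors), the H2O2 and control libraries were fully separated for 0 of the 10 members, against 20.4% of genes tested (9.98% higher and 10.4% lower). With the replicate block, edgeR called 1947 genes, or 21.7% (8.99% higher and 12.8% lower), and of the members 0 higher and 1 lower. The members' median log2 fold change was −0.048, against 0.025 over all genes tested. The labels leave unsaid whether the 3 replicates of a condition were grown as separate cultures. All p-values therefore refer to library-to-library spread, which may be technical.

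Library totals were 35404927 to 42043808 expected counts after H2O2 and 36806499 to 39253171 in controls. Of 11 hemocyte markers, 11 averaged at least 1 TPM, and their summed level was 1736 to 1933 TPM after H2O2 and 2106 to 2411 TPM in controls, with 0 called. The markers did not move together. Hml (259 to 310.2 TPM after H2O2, 395 to 553 in controls), Col4a1 (217 to 271, 324 to 374) and vkg (106 to 128, 138 to 176) were lower. The ranges of all the others overlapped, as for srp (121 to 127 TPM after H2O2, 112 to 133 in controls). Fewer cells of a type and less RNA per cell cannot be told apart in such bulk samples, and the part of these markers in the results was not tested. Fat body markers summed to at most 0.16 TPM in any library. Other lists summed higher: epithelium to 107 to 171 TPM, crystal cell or lamellocyte to 117 to 238, ovarian somatic to 95.1 to 132, muscle to 19.9 to 28.6 and neuron to 5.94 to 10.8. In the crystal cell or lamellocyte, ovarian somatic and muscle lists only 1 gene averaged at least 1 TPM: mys, bam and Mef2, in that order. In the epithelium list cora had 100.5 to 162 TPM, against at most 5.71 for shg and 3.12 for crb. Each of these sums thus rests mainly on 1 gene and does not show a cell type. The fitted change also fell with transcript length over the whole transcriptome, and that trend is given beside the long members below.

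Averaged over the 6 libraries, the levels per length set the order grp, mre11, Gadd45, rad50, Irbp, lok, Ku80, nbs, Ercc1 and Blm. TPM (a share of all transcripts, corrected for length) averaged 81.5 for grp and 60.5 for mre11, which placed them above 83.4% and 77.7% of the tested genes. The ranges of these leading genes overlapped, from 70.0 to 100.2 TPM for grp and from 53.5 to 72.0 TPM for mre11. Within every library, though, grp was above mre11. The genes rad50, Irbp, lok and Ku80 averaged 30.3, 28.9, 28.6 and 27.2 TPM and could not be told apart beyond the spread between libraries. The place of Gadd45 depended on the condition: it averaged 54.1 TPM after H2O2, under grp and mre11, and 29.0 TPM in controls, under rad50 (32.9), Irbp (30.8) and lok (29.4) as well. Blm was the scarcest, at 9.72 TPM, above 33.0% of tested genes. S2 cells thus had transcripts of every member in both conditions.

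**Figure D1:**
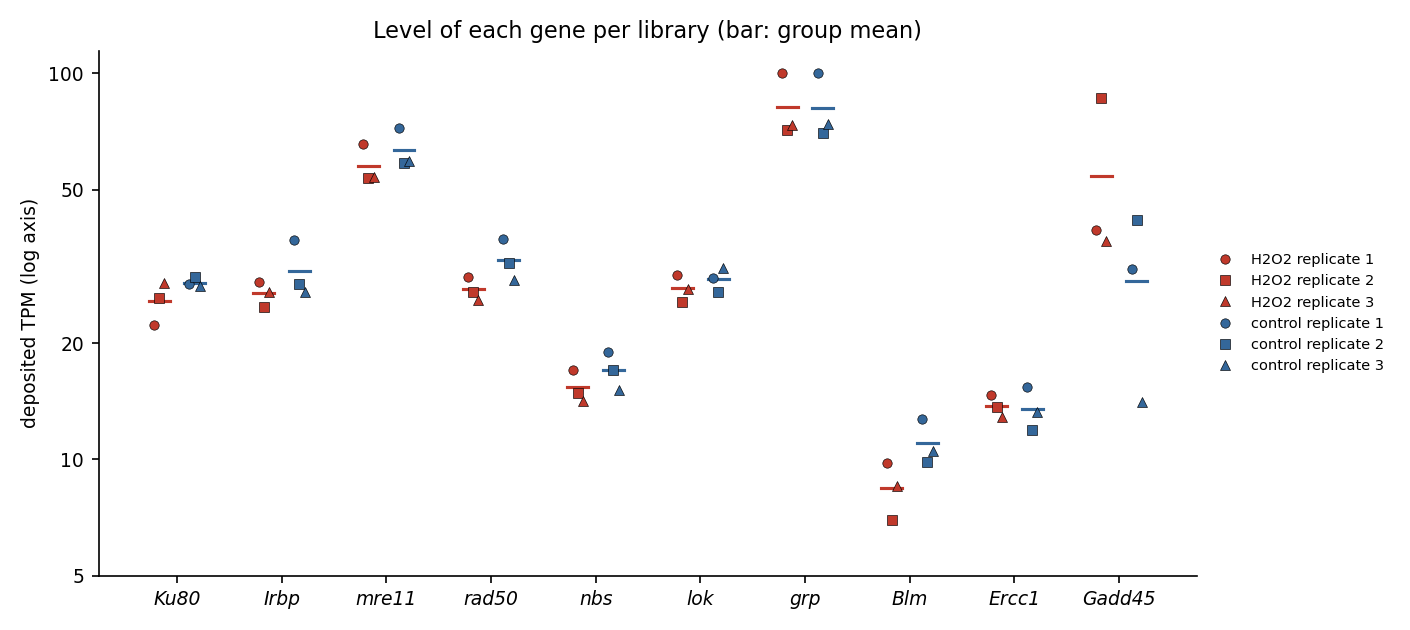
Deposited TPM (log axis) of the 10 genes in each library, with H2O2 left of control, 1 marker shape per replicate number and a bar at the group mean. Gadd45 spans 36.9 to 86.3 TPM after H2O2 and 14.1 to 41.7 TPM in controls, while grp and mre11 lie highest and Blm lowest in most libraries.

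Ku80 and Irbp, the fly Ku70, form the ring that threads onto a DNA end at the start of end joining. Ku80 (FBgn0041627, chromosome 2L, 15768630 to 15771159, minus strand) had 44.9, 56.2 and 56.2 CPM in H2O2 replicates 1 to 3, against 53.1, 57.7 and 54.0 CPM in control replicates 1 to 3. The groups overlapped, and H2O2 replicate 1 was the lowest library. The log2 fold change was −0.067 (SE 0.12, 95% interval −0.36 to 0.22, edgeR adjusted p = 0.909). Irbp (FBgn0011774, chromosome 3R, 11410047 to 11412440, plus strand) had 53.4, 49.0 and 49.2 CPM after H2O2 and 63.6, 50.7 and 48.0 CPM in controls. Here control replicate 1 was the highest, and the values otherwise lay close together (log2 fold change −0.10, SE 0.13, interval −0.41 to 0.22, edgeR adjusted p = 0.871). Neither interval reaches a doubling or a halving.

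The ratio of Irbp to Ku80 in TPM showed how replicate number marked these libraries. It was 1.29, 0.948 and 0.952 in H2O2 replicates 1, 2 and 3, and 1.30, 0.956 and 0.965 in control replicates 1, 2 and 3. Replicate 1 stood apart from the others by a similar amount in both conditions. The mean ratio was 1.06 ± 0.197 after H2O2 and 1.07 ± 0.198 in controls (SD, n = 3 each; exact permutation test on log2 ratios, two-sided, p = 0.5, adjusted over 6 ratios 0.72). With 3 libraries against 3, this exact test cannot go below p = 0.1, and it takes no account of the replicate numbers. Within same-numbered pairs the ratio was lower after H2O2 in 3 of 3, by less than the gap between replicate 1 and the others.

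The complex of mre11, a nuclease gene, rad50, which encodes the ATPase that tethers ends, and nbs, whose product recruits ATM, also protects telomeres in flies. For mre11 (FBgn0020270, chromosome 2L, 11282090 to 11284335, plus strand) the libraries gave 113, 98.9 and 91.1 CPM after H2O2, and 116, 98.2 and 98.3 CPM in controls. Replicate 1 was highest in both conditions and the groups overlapped, with a log2 fold change of −0.042 (SE 0.13, interval −0.35 to 0.26, edgeR adjusted p = 0.956). For nbs (FBgn0261530, chromosome 3L, 9720414 to 9723194, minus strand) they gave 39.1, 36.3 and 31.8 CPM after H2O2, and 40.5, 37.8 and 33.0 CPM in controls. Each H2O2 library of nbs lay just under the control of the same number, by 0.051, 0.059 and 0.051 on the log2 scale. The log2 fold change of nbs was −0.054 (SE 0.13, interval −0.36 to 0.25, edgeR adjusted p = 0.938).

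The third subunit gene, rad50 (FBgn0034728, chromosome 2R, 22421013 to 22425482, plus strand), had 109.8, 107 and 93.8 CPM in H2O2 replicates 1 to 3, against 128, 116 and 104 CPM in the controls. It was lower in 3 of 3 same-numbered pairs, but the groups overlapped. The log2 fold change was −0.16 (SE 0.12, interval −0.45 to 0.13, edgeR adjusted p = 0.716), and with the replicate block the adjusted p was 0.117. Per length, the subunit genes were unequal in every library. The rad50 to mre11 ratio in TPM was lower after H2O2 in 3 of 3 pairs. It averaged 0.482 ± 0.028 after H2O2 and 0.520 ± 0.0295 in controls (exact permutation p = 0.2, adjusted 0.6, n = 3 each). The rad50 transcript, of 4068 nt, is longer than that of mre11, of 2013 nt. In the blocked edgeR fit corrected for length, rad50 had a log2 fold change of 0.042 and mre11 one of −0.04. How much transcript length contributed to the lower rad50 to mre11 ratio was not tested. The nbs to mre11 ratio was 0.268 ± 0.00894 after H2O2 and 0.270 ± 0.0194 in controls (exact permutation p = 0.9, adjusted 0.9, n = 3 each).

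The checkpoint kinase genes differed in level but not detectably between conditions. The Chk2 gene lok (FBgn0019686, chromosome 2L, 20061422 to 20064381, plus strand) had 55.6, 50.5 and 50.2 CPM after H2O2 and 50.7, 48.6 and 55.5 CPM in controls. Its log2 fold change, 0.014, was the closest to 0 among the members (SE 0.11, interval −0.24 to 0.26, edgeR adjusted p = 0.981). The Chk1 gene grp (FBgn0261278, chromosome 2L, 16680054 to 16699926, plus strand) had 195, 149 and 141 CPM after H2O2 and 182, 133 and 139 CPM in controls. Replicate 1 of grp was the highest in both groups. Each H2O2 library of grp lay above its same-numbered control, by 0.10, 0.17 and 0.021 on the log2 scale, and the log2 fold change was 0.10 (SE 0.18, interval −0.32 to 0.52, edgeR adjusted p = 0.909). The ratio of lok to grp in TPM was 0.345 ± 0.0392 after H2O2 and 0.369 ± 0.0668 in controls (exact permutation p = 0.6, adjusted 0.72, n = 3 each).

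Blm encodes the RecQ-family helicase that, with Top3alpha, unlinks joined DNA molecules during recombinational repair. For Blm (FBgn0002906, chromosome 3R, 11736810 to 11741783, minus strand) the libraries gave 43.1, 32.8 and 36.7 CPM after H2O2, against 51.8, 42.1 and 44.4 CPM in controls. H2O2 replicate 1 lay just above control replicate 2, so the groups overlapped on this scale, while every same-numbered pair was lower after H2O2, by 0.27, 0.36 and 0.27 on the log2 scale. On the TPM scale the groups did not overlap, with 9.79, 6.98 and 8.53 TPM after H2O2 and 12.7, 9.87 and 10.5 TPM in controls. Such separation in TPM was found in 15.4% of tested genes on the lower side and 6.81% on the higher side. Among all tested genes, 26.7% were likewise lower in 3 of 3 pairs. The log2 fold change was −0.30 (SE 0.14, interval −0.63 to 0.039, edgeR adjusted p = 0.432). With the replicate block it was −0.30 (SE 0.068, interval −0.45 to −0.15), and Blm was called lower in edgeR (adjusted p = 0.00979). The call was lost without pair 2 of the blocked libraries (log2 fold change −0.28, edgeR adjusted p = 0.0828).

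Blm has the longest transcript of the 10, 4806 nt, followed by rad50 with 4068 nt. Over the 702 genes of at least 5 CPM with transcripts of 4000 to 6000 nt, the median log2 fold change was −0.27 (quartiles −0.35 and −0.18), and 59.1% were called lower with the block. With the length trend removed beside the block, Blm had −0.047 (interval −0.18 to 0.09, edgeR adjusted p = 0.759) and rad50 0.042 (adjusted p = 0.8). In that fit 7.78% of genes tested were called, 6.25% higher and 1.53% lower, and 0 of the 10 members. The deviation of a library's log2 CPM from the mean changed by −0.124, −0.077 and −0.029 per doubling of transcript length in H2O2 replicates 1 to 3, and by 0.004, 0.12 and 0.106 in control replicates 1 to 3. Thus control replicate 1 lay nearer to the H2O2 libraries than the other controls did. The Blm to Top3alpha ratio in TPM was lower after H2O2 in 3 of 3 pairs, at 0.328 ± 0.012 after H2O2 and 0.368 ± 0.0249 in controls (exact permutation p = 0.1, the smallest possible, adjusted 0.6, n = 3 each), and the Top3alpha transcript, of 3925 nt, is shorter than that of Blm.

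**Figure D2:**
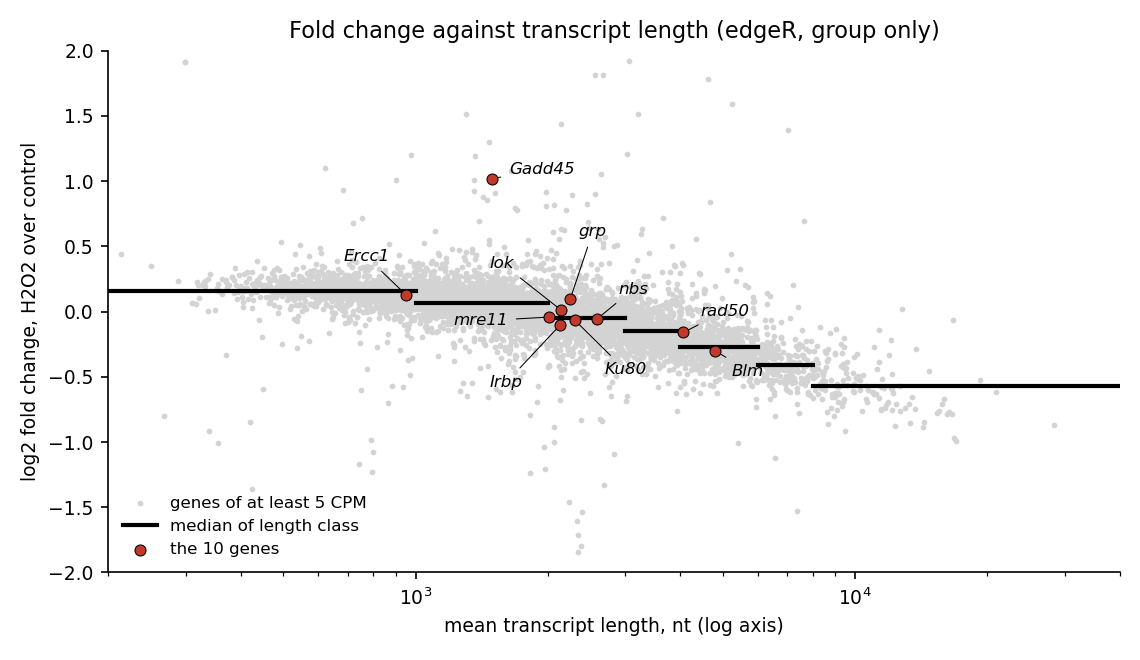
Log2 fold change (H2O2 over control, edgeR on group alone) against mean transcript length in nt (log axis). Grey points are genes of at least 5 CPM, black bars the median of each length class, and red points the 10 genes: Blm (−0.30) and rad50 (−0.16) sit among the negative values of the class with a median of −0.27, and Gadd45 (1.02) far above its class.

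Shorter transcripts fell in classes with medians nearer 0 or above it. In the class of 2000 to 3000 nt (1485 genes, median −0.048, quartiles −0.12 and 0.025) fell Ku80, Irbp, mre11, nbs and lok, all between the quartiles, and grp, above them. Ercc1 encodes the partner of the mei-9 nuclease in nucleotide excision repair. The transcript of Ercc1 (FBgn0028434, chromosome 2R, 14852941 to 14853948, plus strand) is the shortest, at 950 nt. It had 10.5, 10.5 and 9.0 CPM after H2O2 and 10.2, 8.22 and 9.01 CPM in controls, with overlap between the groups. The log2 fold change of Ercc1 was 0.13 (SE 0.15, interval −0.23 to 0.48, edgeR adjusted p = 0.849), and 0.16 was the median over 1130 genes of up to 1000 nt. With block and length trend removed it was 0.012. Its ratio to mei-9 in TPM was 2.27 ± 0.122 after H2O2 and 1.97 ± 0.311 in controls (exact permutation p = 0.3, adjusted 0.6, n = 3 each). The mei-9 transcript, of 3496 nt, is much longer than that of Ercc1. With block and length trend removed, mei-9 had a log2 fold change of 0.057. The part of length in this ratio was not tested.

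Gadd45 encodes the fly member of a family of small stress-inducible proteins, which in mammals bind a MAP kinase kinase kinase upstream of p38 and JNK. For Gadd45 (FBgn0033153, chromosome 2R, 7249161 to 7250655, plus strand) the libraries gave 48.4, 114 and 44.5 CPM in H2O2 replicates 1 to 3, against 35.8, 49.8 and 16.6 CPM in control replicates 1 to 3. The groups overlapped: control replicate 2 was above H2O2 replicates 1 and 3. Within same-numbered pairs every H2O2 library was higher, by 0.44, 1.2 and 1.42 on the log2 scale. All 3 pairs were higher after H2O2 in 30.3% of genes tested.

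The mean of Gadd45 was 69.0 ± 39.0 CPM after H2O2 and 34.1 ± 16.6 CPM in controls (SD, n = 3 each). Its log2 fold change was 1.02 (SE 0.49, interval −0.13 to 2.16, edgeR adjusted p = 0.431). With the replicate block the interval was 0.34 to 1.69 (log2 fold change 1.01, edgeR adjusted p = 0.0624), and the block plus a length correction gave a log2 fold change of 0.95 (adjusted p = 0.107). DESeq2 with the replicate block called Gadd45 higher (log2 fold change 1.0, DESeq2 adjusted p = 0.00737). That fit called 4.11% of all 13324 genes with any read higher and 8.19% lower. With pair 1 left out of the blocked edgeR fit, Gadd45 was called higher (log2 fold change 1.3, edgeR adjusted p = 4.17e-05). That fit called 7.06% of all genes higher and 9.83% lower. It was chosen after the data were seen, and the pair it drops had the smallest Gadd45 difference (0.44). A blocked fit without a pair has fewer degrees of freedom than the full one, so its adjusted p rests on very few libraries. Without pair 2 or pair 3, Gadd45 was not called (edgeR adjusted p = 0.125 and 0.117). Leaving out H2O2 replicate 2 lowered the unblocked log2 fold change to 0.44, and leaving out control replicate 3 gave 0.68. Leaving out control replicate 2 raised it to 1.39.

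Gadd45 was also the most variable member within each condition. Its log2 range over replicates was 1.35 after H2O2 and 1.58 in controls, wider than in 98.7% and 98.8% of the genes of at least 5 CPM. For the other 9 members the range was at most 0.47 after H2O2 and 0.46 in controls, both in grp. The genes whose profile over the 6 libraries was most like that of Gadd45, looked up after its values were seen, were Pcyt2, comm2 and upd2. Their root mean square distances from its centred log2 CPM profile were 0.178, 0.281 and 0.308. Pcyt2, a phospholipid synthesis enzyme gene, had 9.17 ± 3.85 CPM after H2O2 and 5.36 ± 3.16 CPM in controls, and upd2, a cytokine gene of the JAK/STAT pathway, 26.1 ± 17.5 and 14.9 ± 11.8 CPM (SD, n = 3 each). In all 3, as in Gadd45, replicate 2 was the highest library of each condition, which follows from choosing them by profile.

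For the most abundant member, grp, the 3 most similar of 6883 other genes of at least 5 CPM were Enoph, eIF2beta and Nap1. Their distances were 0.011, 0.0183 and 0.0206 on the log2 scale. Enoph had 52.9 ± 9.60 CPM after H2O2 and 49.2 ± 9.09 CPM in controls, the translation factor gene eIF2beta 229 ± 39.3 and 217 ± 36.7 CPM, and the histone chaperone gene Nap1 1268 ± 227 and 1185 ± 180.1 CPM (SD, n = 3 each). Like grp, they were highest in replicate 1 of both conditions, which again follows from how they were chosen.

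**Figure D3:**
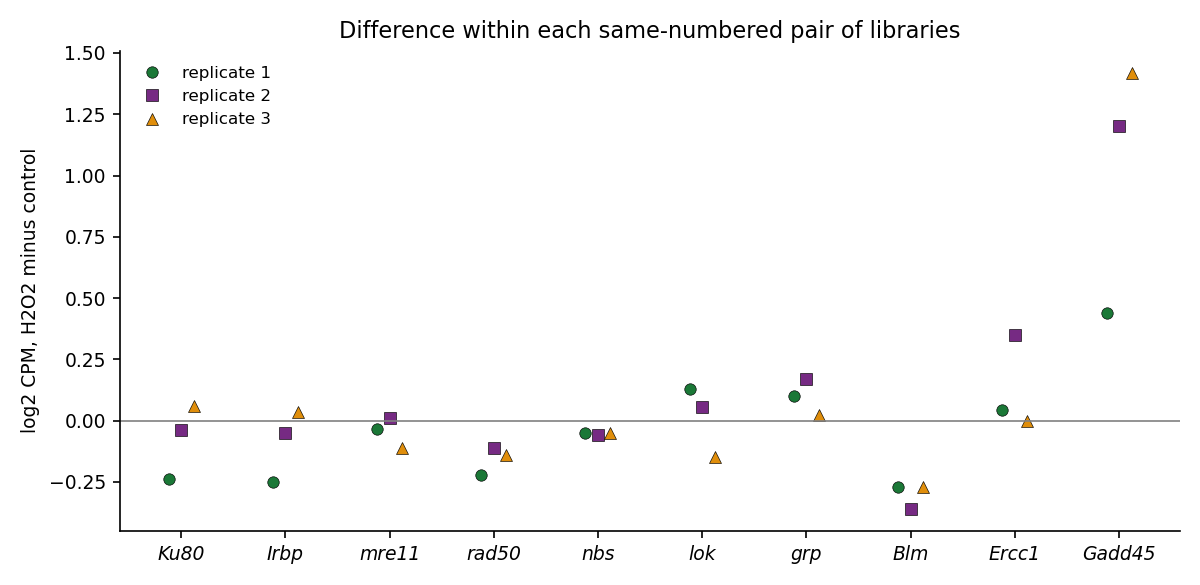
Difference in log2 CPM, H2O2 minus control, within each same-numbered pair of libraries for the 10 genes. All 3 points lie above 0 for Gadd45 (0.44, 1.2 and 1.42) and grp, and all 3 below 0 for Blm (−0.27, −0.36 and −0.27), rad50 and nbs.

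**Figure D4:**
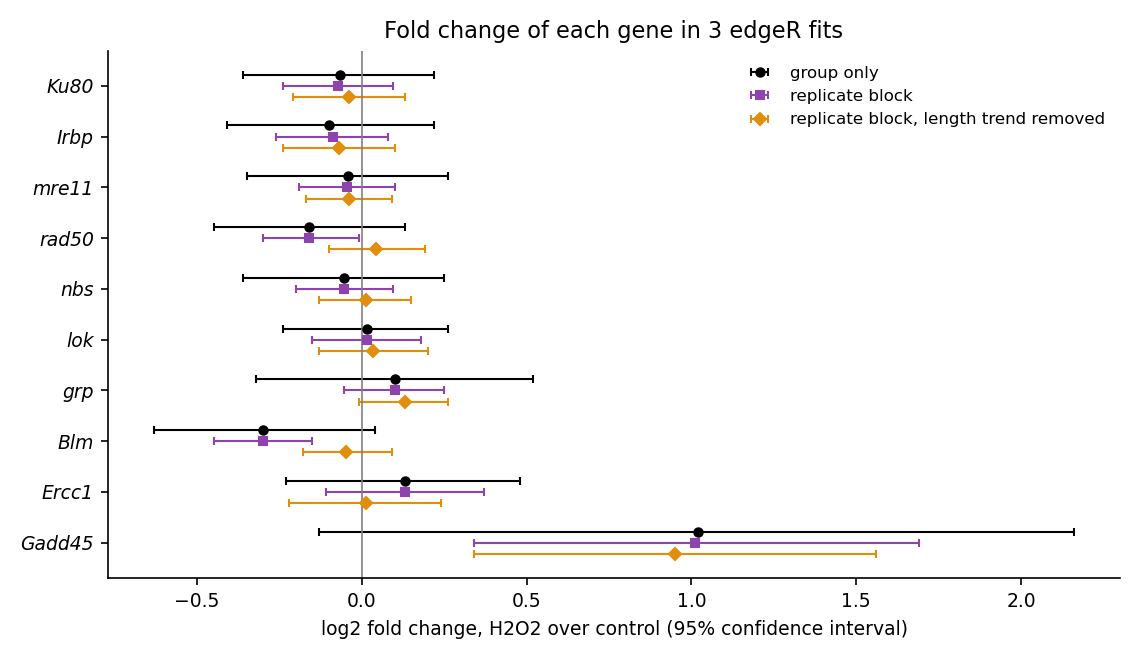
Fitted log2 fold change (H2O2 over control) with 95% confidence intervals in 3 edgeR fits: group only, with the replicate block, and with block and length correction together. The interval of Blm leaves 0 with the block (−0.45 to −0.15) and spans it once the length trend is removed (−0.18 to 0.09), whereas Gadd45 stays near 1 in each.

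Neighbouring genes could bear on these counts, since many lie close together, but this was not tested. Blm, Ercc1, lok, nbs and mre11 overlap a gene on the opposite strand, by 68, 86, 121, 51 and 9 bp, in the Ensembl annotation (BDGP6.54, dm6). The grp locus spans the opposite-strand CG31807 and the same-strand CG33552, each under 1 CPM on average in both conditions. The sources used here do not say whether the counting used strand. The RSEM posterior SD of the count, which is above 0 where reads are shared with another gene, was 0 in all 6 libraries for the members other than grp. For grp it was at most 5.91 reads, against at least 5019 reads in the count. The same posterior SD was found for squ, which overlaps grp by 1600 bp on the same strand and had 76.4 ± 13.7 CPM after H2O2 and 77.5 ± 9.89 CPM in controls (SD, n = 3 each). Gadd45 has no protein-coding neighbour on its own strand within 5000 bp. The isoform-weighted transcript length that RSEM gives lay between 2245 and 2258 nt for grp and between 2134 and 2144 nt for lok, which does not show how single isoforms were used.

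Beyond these 10, a list of other DNA damage response genes of flies matched 69 genes in the files, of which 68 were tested. On group alone edgeR called 0 of 68, with 11 at an unadjusted p under 0.05, which 1256 of all 8955 genes had. DESeq2 kept 69 and called 1 higher (1.45%) and 5 lower (7.25%), against 3.14% and 2.44% of all 13324 genes in that fit. Those 13324 include genes with few reads that the edgeR filter left out, so the 2 sets of shares are not alike. Limma on log2(TPM + 1) called 0. With the replicate block, edgeR called 3 higher (4.41%) and 12 lower (17.6%), against 8.99% and 12.8% of all genes tested. Whether the list differs from all genes in this was not tested. The median log2 fold change of the list was −0.066 on group alone. Genes of recombination and crosslink repair are counted but not reported here by name. In each other role the gene of highest TPM was named by rule, which took stg and CG12728. The other genes called with the block were picked once their values had been seen.

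The 3 genes called higher with the block included stg and rpr. The Cdc25 phosphatase gene stg, which drives entry into mitosis and is opposed by the checkpoint, had 594, 581 and 523 CPM after H2O2 and 408, 321 and 428 CPM in controls. Its groups did not overlap, as in 9.98% of tested genes on the higher side (log2 fold change 0.55, SE 0.14; edgeR adjusted p = 0.101 on group alone and 0.004 with the block). The death gene rpr, a target of p53 in irradiated flies, had 7.33, 17.5 and 16.2 CPM after H2O2 and 4.51, 10.5 and 5.34 CPM in controls. These groups overlapped, with every same-numbered pair higher after H2O2 (log2 fold change 1.01, SE 0.42; edgeR adjusted p = 0.348 and 0.00833). With the length trend removed beside the block, stg (adjusted p = 0.0178) and rpr (0.0365) were the genes of the list called higher.

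Of the 12 genes called lower with the block, 10 had transcripts over 3000 nt, as did 27 of the 68 in the list and 2309 of all 8955 tested. The median of the 12 was 4750 nt, compared with 2558 nt over the list and 1873 nt over all genes tested. The other 2 were mus81, a nuclease gene (2155 nt), and CG12728 (2167 nt). They included the ATM gene tefu (138 ± 9.22 CPM after H2O2, 190.1 ± 6.55 CPM in controls), the ATR gene mei-41 (27.8 ± 5.45 and 43.2 ± 1.59 CPM) and the end-joining polymerase gene PolQ (55.1 ± 11.5 and 80.0 ± 7.67 CPM; SD, n = 3 each). Their log2 fold changes were −0.47, −0.64 and −0.54 on group alone. With block and length trend removed these became −0.026, −0.23 and −0.20, none called. Of the 12, CG12728 alone was called in that fit. CG12728, for which the RefSeq table gives the synonym XRCC4, an end-joining factor, had 45.1, 49.9 and 48.5 CPM after H2O2 and 78.6, 78.2 and 60.3 CPM in controls, with no overlap. Its log2 fold change was −0.60 (SE 0.13; edgeR adjusted p = 0.0655 on group alone, 0.00126 with the block and 0.00823 with the length trend removed beside it).

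**Figure D5:**
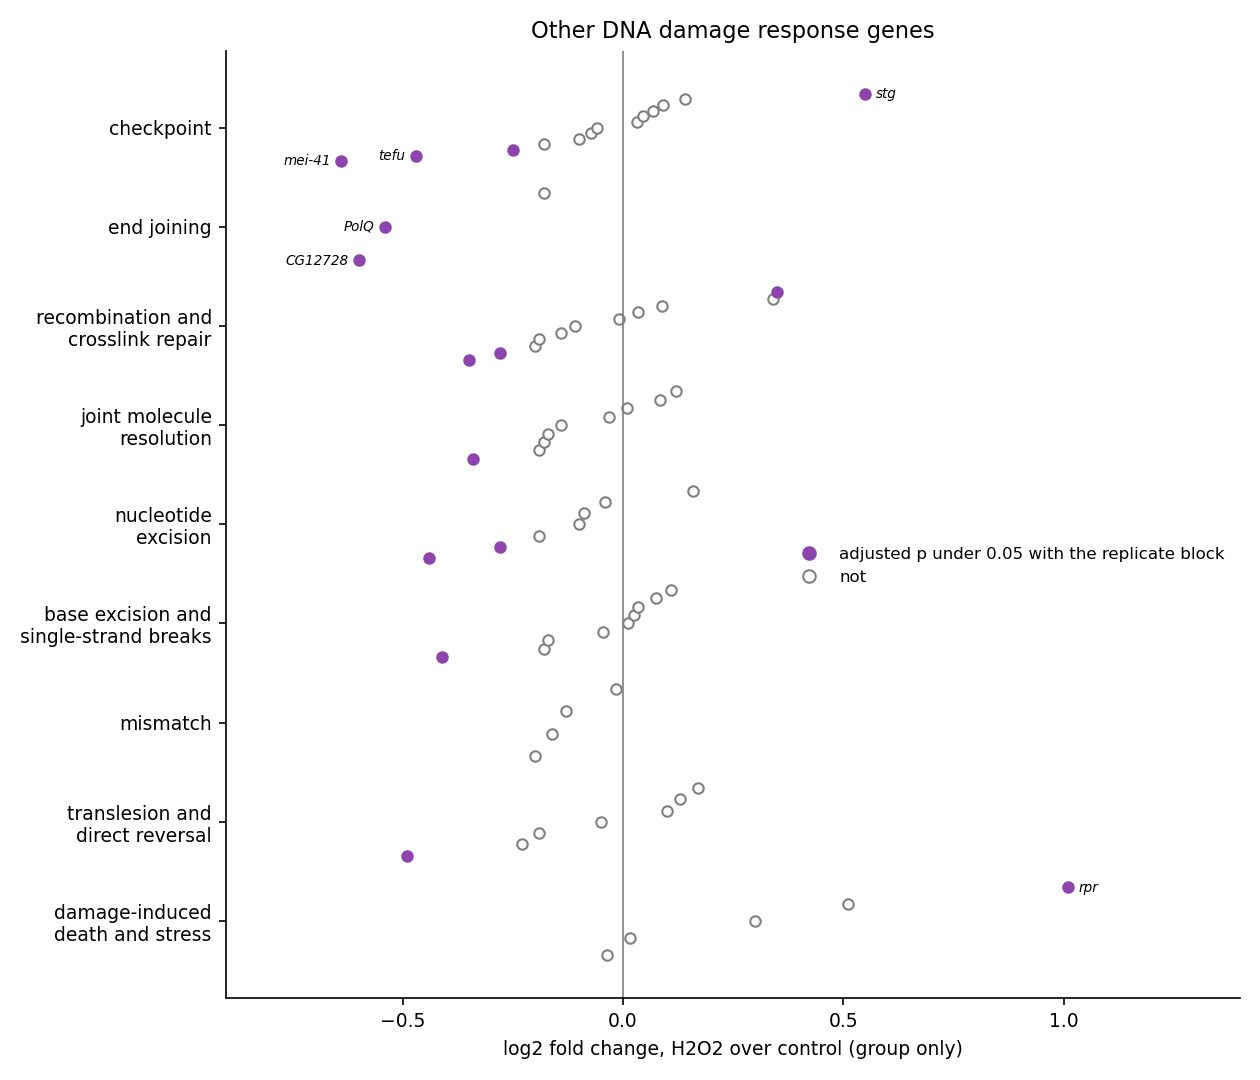
Log2 fold change (H2O2 over control, edgeR on group alone) of 68 other DNA damage response genes by role. Filled points passed an adjusted p of 0.05 with the replicate block: 12 lie below 0, among them tefu (−0.47) and CG12728 (−0.60), and 3 above, with rpr at 1.01. Names mark the called genes described in the text.

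In other roles, genes called lower with the block included the damage recognition gene Xpc and the nuclease gene mus201 of nucleotide excision repair, the glycosylase gene Tdg of base excision repair and the translesion polymerase gene PolZ1. Their log2 fold changes were −0.28, −0.44, −0.41 and −0.49 on group alone, and none was called once the length trend was removed. Several genes with the highest TPM of their role did not pass in any of the 3 edgeR fits. Their log2 fold change was 0.12 for WRNexo, −0.19 for the Ddb1 gene pic, 0.033 for the flap endonuclease gene Fen1, −0.16 for the mismatch repair gene Pms2 and 0.13 for the photolyase gene phr (edgeR adjusted p between 0.698 and 0.98). Among damage-induced genes the highest TPM was that of Xrp1, with 1091 ± 287 CPM after H2O2 and 1120 ± 314 CPM in controls (SD, n = 3 each; log2 fold change −0.037). The p53 gene itself had 27.5 ± 3.46 CPM after H2O2 and 24.9 ± 1.26 CPM in controls (log2 fold change 0.14, edgeR adjusted p = 0.77).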

How the data were processed

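RNA-seq libraries of S2 cells were analysed, 3 after H2O2 and 3 controls. Trizol extracts were cleaned on columns, and poly(A) RNA went into a stranded TruSeq preparation, per the labels' protocols. STAR 2.4.0j, RSEM 1.2.21 and build dm6 are named in the submitters' processing notes. The annotation and strand setting are not given in the sources used here. The deposited gene tables hold, per the file headers, expected counts (ambiguous reads are split between genes by probability) and the deposited TPM values, which keep no depth. The tables also list gene lengths weighted by isoform abundance and posterior SDs.

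Symbols and positions came from the Ensembl annotation of BDGP6.54 (dm6) and matched 16419 of 16451 genes. Expected counts were rounded. With edgeR 4.0.16 in R 4.3.3, filterByExpr left 8955 genes (99.975% of counts), which were scaled by TMM and tested two-sided by robust quasi-likelihood. SE is the log2 fold change over the square root of F, and 95% intervals use edgeR's moderated degrees of freedom. Same-numbered libraries deviated together from their group means (correlations across genes 0.717, 0.518 and 0.601), so the numbers were read as pairing them. The labels themselves state no pairing. Libraries were not duplicates (chi-square per degree of freedom 48.7 to 229 over 15 pairs).

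The length trend was removed with offsets from a loess curve of log2 CPM (prior count 2) on log2 length per library, fitted on genes of at least 5 CPM. Alternatives were DESeq2 1.42.0, limma 3.58.1 on log2(TPM + 1) and log2(TPM + 0.1), RLE factors, other filters and leaving out each library. The edgeR fits, with and without block and length correction, were also run on simulated counts with known fold changes. Those counts held no length trend, so they could not test how well the correction removes one.

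The 10 members and all lists were chosen with earlier results of these data known. The rule for named genes took all 10 members. From each of the 9 roles in the other list it took up to 2 called genes, or the one of highest TPM where none was called. Some genes of that list are counted but not reported here by name. Likeness was the root mean square distance of centred log2 CPM profiles, for called members or else the most abundant.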

Additional observations from a re-analysis of the deposited data

How the results depend on the processing

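Fits on group alone (edgeR, DESeq2, limma) called none of the 10 members, nor did edgeR with any single library left out, where 3 of 6 fits called no gene at all. The block changed no member's call in edgeR other than that of Blm. Of 190 fold changes of members under the alternatives, 168 kept their direction, and none of the 22 that turned was called or exceeded 0.08 in size.

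Called over all genes were 230 higher and 51 lower on group alone, 805 and 1142 with the replicate block, 560 and 137 with replicate block and length trend removed, 419 and 325 by DESeq2, 60 and 16 with at least 50 counts in 3 libraries, and 548 and 1091 by DESeq2 with the block, a fit chosen after seeing the data. The length trend removed alone left 10 lower, and limma on log2(TPM + 0.1) gave 80 lower. Without single libraries the counts were 0 to 134 higher and 0 to 20 lower, with 0 called when H2O2 replicate 2 or either of control replicates 2 and 3 was left out. The replicate block called 0 members higher and 1 lower (Blm, −0.30), and DESeq2 with the block 1 and 1 (Gadd45 1.0, Blm −0.32). With the block and each pair left out in turn, also chosen after seeing the data, all genes gave 642, 361 and 732 higher and 894, 407 and 920 lower (without pair 1, 2 and 3), and members 0 to 1 in each direction. Blm then had −0.32, −0.28 and −0.33 and Gadd45 1.3, 0.91 and 0.81. The other list had 3 higher and 12 lower with the block, 2 and 1 with block and length correction, 1 and 5 by DESeq2, 2 and 12 by DESeq2 with the block, 2 to 3 higher and 7, 6 and 11 lower with the block and a pair left out, and 1 lower by limma on log2(TPM + 0.1). Without single libraries it had 0 higher and 0 to 1 lower.

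Direction turned for rad50 (0.042 with block and length trend removed, 0.037 without block) and nbs (0.012 in each), and for lok by DESeq2 (−0.002), DESeq2 with the block (−0.0015), no low-count filter (−0.00023) and limma (−0.078 and −0.08). Leave-one-out values of the log2 fold change lay between −0.13 and 0.03 for Ku80, −0.18 and 0.031 for Irbp, −0.14 and 0.038 for mre11, −0.14 and 0.012 for nbs, −0.038 and 0.064 for lok, −0.063 and 0.25 for grp, −0.41 and −0.21 for Blm and 0.44 and 1.39 for Gadd45. With the block and a pair left out, Ku80 had −0.15 to 0.0076 and lok −0.047, −0.014 and 0.08. The cause of these changes was not tested. With 3 libraries a group, the block left few degrees of freedom. Ercc1 had the fewest reads, 311 to 439 per library.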
